A study of Homo sapiens with 6 samples.

Results

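The interferon response genes described here are 42 genes listed by symbol: sensors of viral RNA, the transcription factors that carry the interferon signal, and antiviral effectors that interferon induces. Each symbol matched 1 row of a table of 58735 genes counted by RNA-seq, and the rule uses no measured value. The table covers 6 libraries of RPE-1 cells, an immortalised human retinal pigment epithelial line. In these cells CETN2, a centriole protein, is tagged with GFP, and PLK4, the kinase that starts centriole duplication, is under doxycycline-inducible (rtTA) control. All cells were transfected with an siRNA and given doxycycline at 1 µg/mL. The siControl group (3 libraries) received a scramble siRNA, and the siSON group (3 libraries) received an siRNA against SON, a protein of nuclear speckles with a role in splicing. The groups therefore share PLK4 induction and transfection, and no library of untransfected or uninduced cells was analysed here. Neither the sequences of the siRNAs, nor the hours after transfection, nor whether the 3 libraries of a group came from separate cultures is given, so p-values measure the spread between these libraries, which may be technical.

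In the interferon system, RNA in the cytosol is recognised by the helicases RIG-I (DDX58) and MDA5 (IFIH1), which signal through the mitochondrial adaptor MAVS to the kinases TBK1 and IKBKE and to the transcription factors IRF3 and IRF7. Secreted interferon then acts through its receptor and the kinases JAK1 and TYK2 on a complex that holds STAT2 and IRF9 and binds interferon-stimulated response elements to switch on antiviral genes. Long RNA duplexes are a known trigger of this system, and transfected short duplexes can be one too. Epithelial cells keep a basal level of many of these genes without added interferon.

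Values of a group are given in the order of replicates 1 to 3. SON fell to 22.8% of its control level, with 295, 313 and 284 CPM in the siControl libraries against 68.0, 69.96 and 65.0 CPM in the siSON libraries (log2 fold change -2.14 with SE 0.057, adjusted p 6.78e-10). Library totals were 54572365 to 69764836 counts, so that 3 counts, the upper limit that a count of 0 allows, stood at 0.0402 to 0.0590 CPM (counts per 1000000 after TMM scaling, a correction for library composition). Limits of this kind cover counting error only. Pairs of replicates that included replicate 1 differed more (chi-square per degree of freedom 18.3 to 26.1) than pairs of replicates 2 and 3 (7.16 and 7.18), and the counts below were therefore also made without replicate 1. Of the markers of retinal pigment epithelium, MITF, OTX2, BEST1, KRT8, KRT18 and VIM were present. Their log2 fold changes ran from 0.34 (KRT8) to 1.48 (KRT18), apart from VIM (-0.14). BEST1 overlaps FTH1 on the other strand. RPE65, RLBP1 and TYRP1 stayed at or under 0.258 CPM in every library, and PMEL went from 2.04 to 2.11 CPM in siControl to 0.172 to 0.252 CPM in siSON. The 6 blood cell markers summed to 2.11 to 2.78 CPM in siControl and 0.655 to 0.873 CPM in siSON, of which PTPRC had the largest part in siControl, and CD3E and HBB were at 0 counts in every library; their part in the results below was not tested.

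After SON knockdown the interferon response genes moved in both directions. Of the 42 genes, 39 had enough counts to be tested, 20 of them fell and 14 rose (edgeR's quasi-likelihood test, adjusted p threshold 0.05), and 5 were not called. Among all 16591 genes tested, 71.7% were called, 36.5% lower and 35.2% higher. The shares over all genes are not matched to the interferon genes for expression level. At least a 2-fold fall was seen for 12 of the interferon genes (20.5% of all genes tested) and at least a 2-fold rise for 2 (8.72% of all genes tested). The median log2 fold change, siSON over siControl, was -0.35 for the 39 genes and -0.027 for all genes tested. The groups did not overlap for 34 of the 39 genes, 20 with siSON below and 14 with siSON above; among all genes tested 75.1% did not overlap, 38.2% below and 36.9% above. The falls ran deeper than the rises: the lowest value was that of BST2 (-6.45) and the highest that of IRF2 (1.26). All 20 falls were also called under the other scalings tried, and 7 of the 14 rises were lost when libraries were scaled by their totals alone, which gave 7 higher and 23 lower. Without replicate 1 of both groups 14 genes were called higher and 21 lower.

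**Figure D1:**
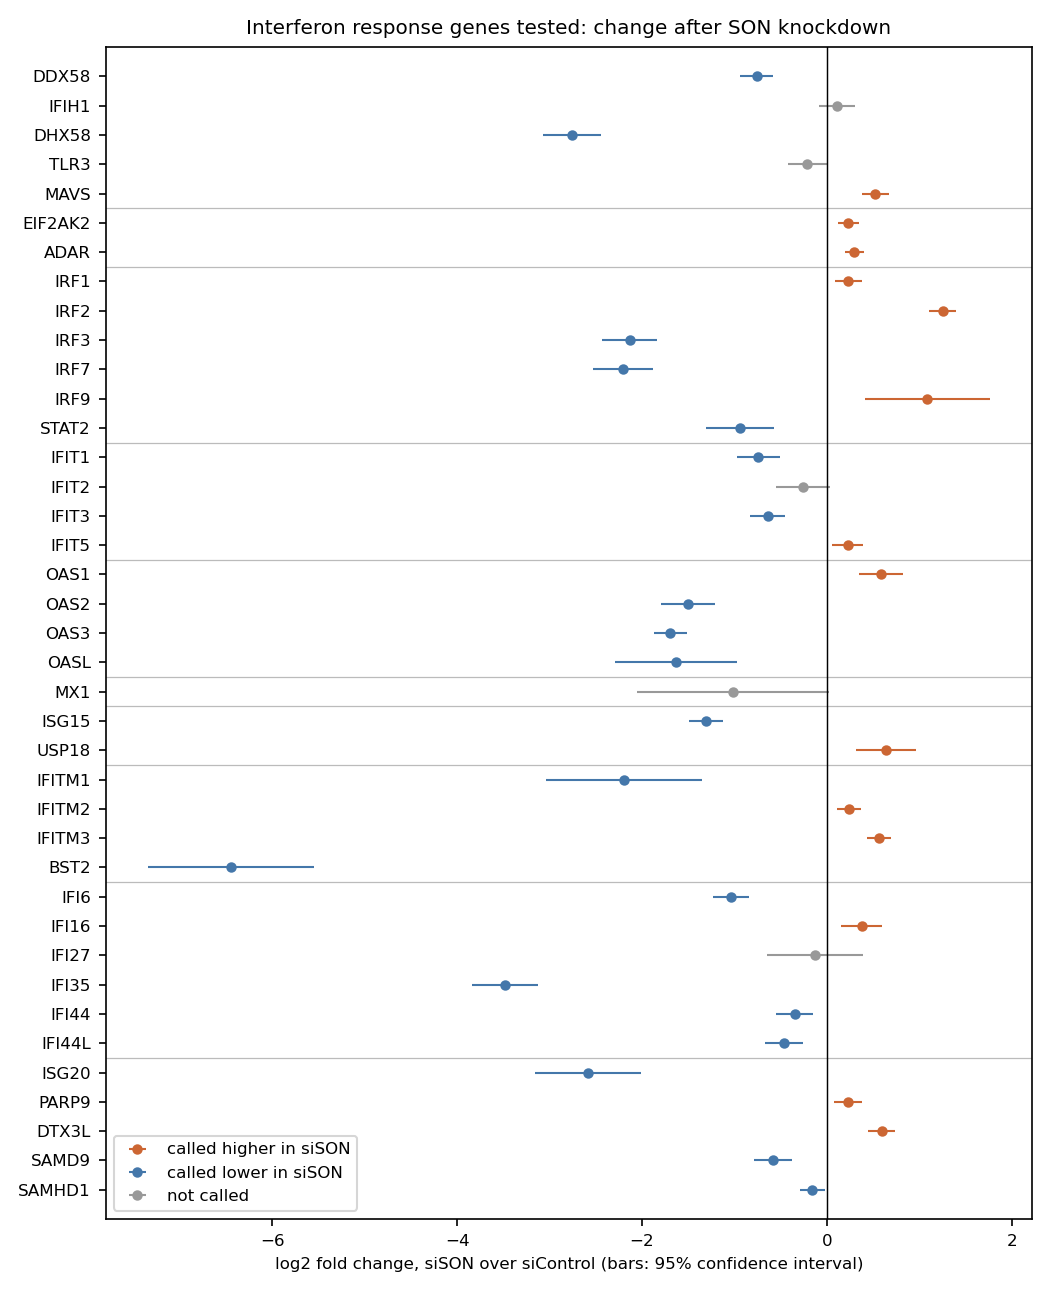
Log2 fold change (siSON over siControl) of the 39 interferon response genes tested, with 95% confidence intervals, ordered by role; colours mark genes called higher, called lower and not called. The deepest falls, BST2, IFI35, DHX58 and ISG20, lie between -6.45 and -2.59, and the 14 rises lie between 0.23 and 1.26.

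The genes together took 0.187% to 0.192% of the counts in siControl and 0.160% to 0.164% in siSON. Their summed level after TMM scaling was 1733 to 1810 CPM in siControl and 1702 to 1768 CPM in siSON, so that the groups overlapped on that scale and did not overlap as shares of all counts. The 5 genes with the highest CPM in siControl, ADAR, STAT2, IFI16, MAVS and OAS3, held 51.8% of the summed level there and 53.5% in siSON. Per kilobase of exon, the highest control level was that of IFITM3 (60.1 CPM per kb, SD 3.24), followed by STAT2 (37.4, SD 4.46), IFI16 (34.3, SD 2.62), IFITM2 (32.7, SD 1.08) and ADAR (27.2, SD 0.397). STAT2, IFI16 and IFITM2 lay within their spread of each other. In siSON, IFITM3 was again the highest at 88.8 CPM per kb (SD 3.06), and STAT2 stood at 19.5 (SD 4.86), under IFI16, IFITM2 and ADAR. In bulk RNA, fewer cells carrying a transcript and less of it per cell cannot be told apart.

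**Figure D2:**
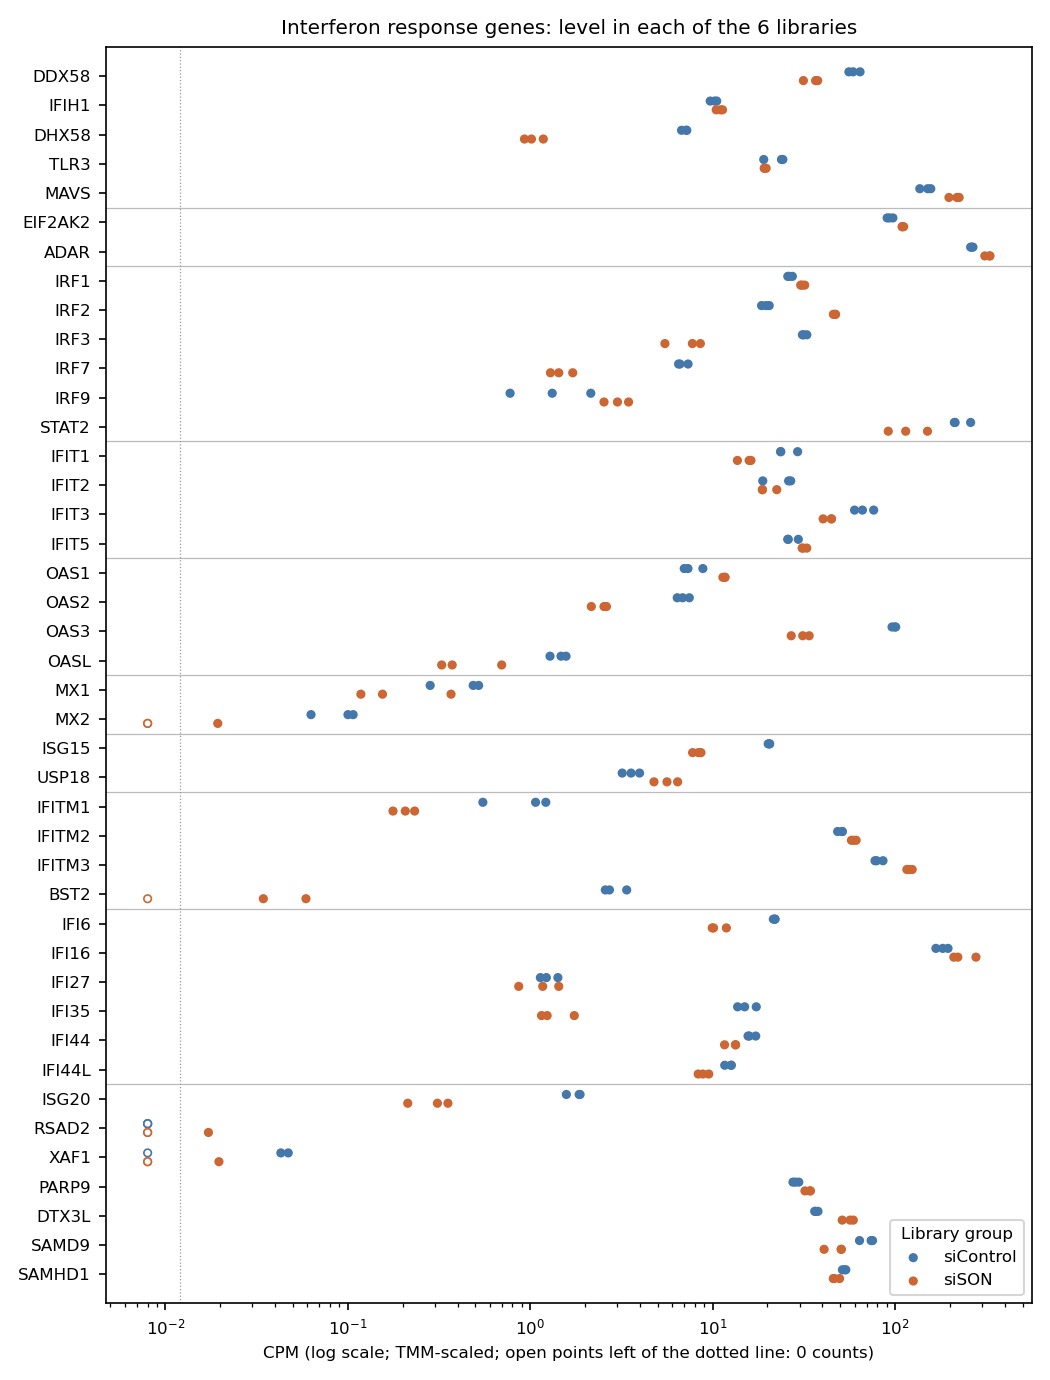
Level of each of the 42 interferon response genes in every library, in CPM on a log axis, with siControl points in blue and siSON points in orange; open points left of the dotted line are libraries with 0 counts. Levels run from 0 counts (RSAD2 in siControl) to 331 CPM (ADAR in siSON), and for BST2, IFI35 and DHX58 the siSON points lie far to the left of the siControl points.

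Promoters were examined because the interferon-stimulated response element is the shared control sequence of this gene class. The core searched, on both strands, was GAAA, then NN (any 2 bases), then GAAA, which reads TTTC, NN, TTTC on the other strand. The window was the 250 bases before each RefSeq gene start (GRCh38.p14), and 32 of the 42 genes matched at least 1 of 35116 promoters in the table. The core was found in 21 of 43 promoters of these genes (48.8%) and in 3.02% of all promoters. It was present in 18 genes, of which 11 fell, 3 rose, 3 were not called and 1 was not tested. Of the 14 genes without it in this window 4 fell and 8 rose. The split between genes with and without the core depends on the window and on the spacing searched. The window of DTX3L, which rose, ends inside the core that is counted for its neighbour PARP9. OAS1 and IFI16, which rose, and DDX58 and IFI35, which fell, hold 2 GAAA runs 1 base apart, which the search does not count. Among all genes tested whose symbol matched a promoter, 38.5% of the 379 with the core were called lower and 36.9% higher, and 37.3% of the 10495 without it were called lower and 39.6% higher. The counts among the interferon genes are a description with no test. A match is a run of letters and not a shown binding site. The promoters shown belong to 4 genes that hold the core and have large changes at well-counted levels (mean log2 CPM from 1 upward), and all 4 genes fell. Each is written 5′ to 3′ on the gene's strand with the core in capitals: OAS3 at chr12:112938224-112938473 (plus strand), ISG15 at chr1:1013247-1013496 (plus strand), IFI6 at chr1:27672193-27672442 (minus strand) and IFIT1 at chr10:89392373-89392622 (plus strand).
OAS3: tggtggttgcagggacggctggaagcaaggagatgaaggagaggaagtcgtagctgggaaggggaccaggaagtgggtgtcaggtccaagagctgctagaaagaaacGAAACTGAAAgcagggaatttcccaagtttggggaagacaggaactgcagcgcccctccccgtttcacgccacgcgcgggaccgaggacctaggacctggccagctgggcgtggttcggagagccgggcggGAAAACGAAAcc
ISG15: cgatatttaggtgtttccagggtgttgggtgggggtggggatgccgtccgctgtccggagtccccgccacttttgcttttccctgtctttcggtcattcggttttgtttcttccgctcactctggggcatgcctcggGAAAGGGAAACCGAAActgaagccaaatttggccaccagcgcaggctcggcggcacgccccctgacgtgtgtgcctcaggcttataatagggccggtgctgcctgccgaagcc
IFI6: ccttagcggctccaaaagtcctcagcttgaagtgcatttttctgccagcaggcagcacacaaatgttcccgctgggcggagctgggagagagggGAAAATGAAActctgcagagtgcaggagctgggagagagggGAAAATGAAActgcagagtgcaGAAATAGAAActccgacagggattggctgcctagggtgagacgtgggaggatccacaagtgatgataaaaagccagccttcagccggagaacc
IFIT1: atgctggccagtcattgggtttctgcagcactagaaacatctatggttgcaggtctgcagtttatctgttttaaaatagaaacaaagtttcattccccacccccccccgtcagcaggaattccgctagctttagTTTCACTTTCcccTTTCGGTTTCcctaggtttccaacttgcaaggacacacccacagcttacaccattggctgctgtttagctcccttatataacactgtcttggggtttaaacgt
OAS3 and IFIT1 held 2 copies each, ISG15 held 2 copies that overlap each other, and IFI6 held 3. GENCODE 29 places the first base of each of these genes within the printed window or, for ISG15, before it.

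Among the RNA sensors, the regulator of the RIG-I family fell furthest, RIG-I itself fell less, and the adaptor downstream of them rose. DHX58 (LGP2, a helicase that modulates signalling by RIG-I and MDA5; chromosome 17, 42101404 to 42112733, minus strand) had 7.17, 7.22 and 6.76 CPM in the siControl libraries against 1.02, 0.931 and 1.18 CPM in the siSON libraries. Its siSON libraries all lay at about 1 CPM, far below the control libraries, and 14.8% of the control level remained (log2 fold change -2.76 with SE 0.14, adjusted p 2.53e-08). DDX58 (chromosome 9, 32455705 to 32526324, minus strand) had 55.9, 58.9 and 64.3 CPM in siControl against 31.5, 36.7 and 37.7 CPM in siSON, with no overlap (log2 fold change -0.76 with SE 0.083, adjusted p 7.97e-06). IFIH1, which recognises long RNA duplexes, had 10.3, 9.70 and 10.5 CPM in siControl against 11.1, 10.5 and 11.3 CPM in siSON. The IFIH1 groups overlapped (log2 fold change 0.11 with SE 0.088, adjusted p 0.295; 95% interval -0.087 to 0.30), and the gene was called higher under cyclic loess normalization, which fits a smooth curve between libraries (0.30, limma adjusted p 0.0103) and had the opposite sign with library totals alone (-0.090, adjusted p 0.368). TLR3, the endosomal sensor of RNA duplexes, had 19.1, 23.9 and 24.3 CPM in siControl against 19.2, 19.7 and 19.2 CPM in siSON. Its siControl replicate 1 lay at the siSON level, the call was missed (log2 fold change -0.21 with SE 0.097, adjusted p 0.0715), and without that library the log2 fold change was -0.34 (adjusted p 0.00297). TLR3 was also called lower with library totals alone (-0.41, adjusted p 0.00398). MAVS (chromosome 20, 3846799 to 3876123, plus strand) rose from 148 ± 10.5 CPM to 214 ± 14.2 CPM (mean ± SD over 3 libraries), with every siSON library above every control library (log2 fold change 0.53 with SE 0.067, adjusted p 2.89e-05).

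The kinase PKR (EIF2AK2), which halts translation on binding RNA duplexes, and ADAR, which edits adenosine to inosine in them, were both called higher by a small margin. EIF2AK2 had 97.4, 93.3 and 90.6 CPM in siControl against 109.9, 109 and 112 CPM in siSON (log2 fold change 0.23 with SE 0.052, adjusted p 0.00180), and ADAR had 259.8, 264 and 268 CPM in siControl against 330.5, 311 and 331 CPM in siSON (log2 fold change 0.30 with SE 0.048, adjusted p 1.76e-04). Both directions turned under cyclic loess normalization (-0.0075 and -0.054) and both calls were lost with library totals alone (0.037 and 0.10), so the sign of these changes rests on the scaling. EIF2AK2 shares its span with AC007899.1 and GPATCH11 on the other strand, and the strand setting of the counting is not given in the sources used here.

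The transcription factors split, with IRF3, IRF7 and STAT2 lower and IRF1, IRF2 and IRF9 higher. IRF3, the factor that RNA sensing activates first (chromosome 19, 49659569 to 49665875, minus strand), had 31.1, 32.9 and 31.5 CPM in the siControl libraries against 5.48, 8.57 and 7.75 CPM in the siSON libraries. The siSON libraries kept 22.8% of the control mean, with no overlap (log2 fold change -2.13 with SE 0.14, adjusted p 1.26e-07); the gene overlaps BCL2L12 on the other strand. IRF7, which is itself induced by interferon and amplifies its production (chromosome 11, 612553 to 615999, minus strand), had 7.34, 6.51 and 6.62 CPM in siControl against 1.29, 1.43 and 1.71 CPM in siSON. It was left at 21.7% of the control mean (log2 fold change -2.21 with SE 0.15, adjusted p 1.48e-07). IRF2, which antagonises IRF1 at shared promoter elements (chromosome 4, 184387713 to 184474580, minus strand), had 18.6, 19.6 and 20.4 CPM in siControl against 46.9, 45.9 and 47.2 CPM in siSON. The siSON libraries clustered at about 2.39 times the control level, and IRF2 had the largest rise of the 39 genes (log2 fold change 1.26 with SE 0.067, adjusted p 2.94e-08). IRF1, an activator induced by interferon gamma, had 26.3, 25.8 and 27.4 CPM in siControl against 30.9, 30.4 and 32.0 CPM in siSON (log2 fold change 0.23 with SE 0.066, adjusted p 0.00822), and this call was lost with library totals alone (0.034) and without siControl replicate 2 (0.19, adjusted p 0.0642).

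STAT2 and IRF9 are subunits of the complex that binds the response element. STAT2 (chromosome 12, 56341597 to 56360155, minus strand) had 259.7, 212 and 214 CPM in the siControl libraries against 151, 114 and 91.9 CPM in the siSON libraries. Both groups were spread, the highest siSON library stayed below the lowest control library, and the change was called (log2 fold change -0.94 with SE 0.16, adjusted p 5.95e-04); RNU7-40P lies within the gene on the same strand. IRF9 was counted seldom, with 150, 84 and 58 counts in siControl and 201, 131 and 153 counts in siSON. Scaled for depth, IRF9 had 2.15, 1.32 and 0.776 CPM in siControl against 3.46, 2.54 and 3.01 CPM in siSON. On that scale all siSON libraries were above all control libraries (log2 fold change 1.09 with SE 0.30, adjusted p 0.00787). The gene overlaps AL136295.5 on its own strand. Reads that lie in both genes cannot be told apart, so the level and change of IRF9 are uncertain.

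**Figure D3:**
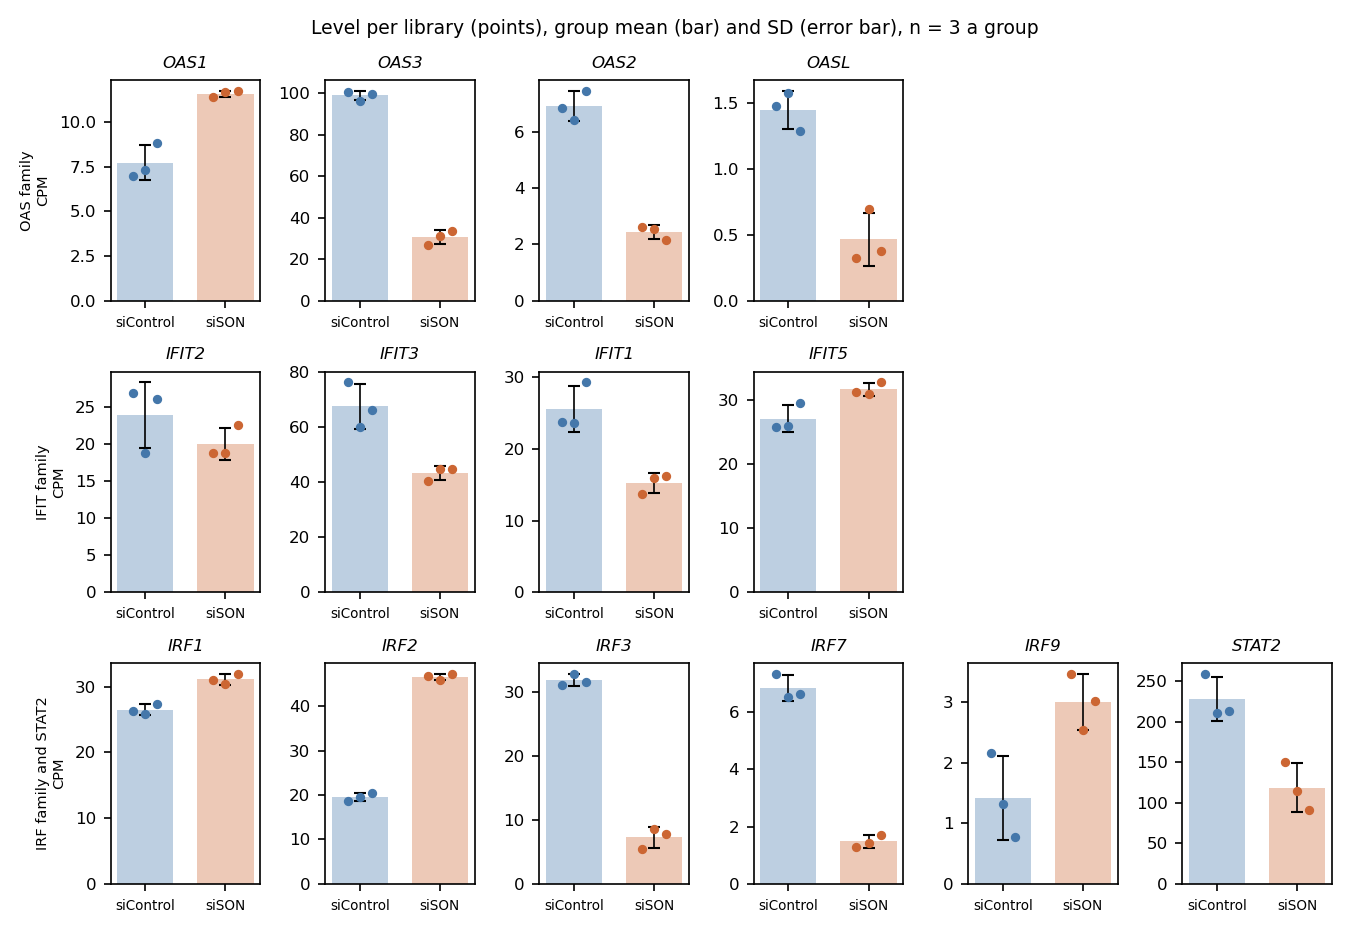
CPM per library (points), group mean (bars from 0) and SD (error bars, n = 3 a group) for the OAS family, the IFIT family, and the IRF factors with STAT2; each panel has its own axis. OAS1 is higher in siSON while OAS2, OAS3 and OASL are lower, and IRF2 and IRF9 are higher while IRF3, IRF7 and STAT2 are lower.

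The oligoadenylate synthetases make an oligoadenylate messenger with antiviral action when they meet RNA duplexes. OAS1, OAS3 and OAS2 lie in this order in a row on chromosome 12 on the plus strand, and the first of them moved against its neighbours. OAS3 (chromosome 12, 112938352 to 112973249, plus strand), the most counted, had 101, 96.3 and 99.8 CPM in the siControl libraries against 27.0, 31.2 and 33.8 CPM in the siSON libraries. Every siSON library was near a level of 31.0% of the control mean (log2 fold change -1.69 with SE 0.080, adjusted p 1.38e-08). OAS2 (chromosome 12, 112978395 to 113011723, plus strand) had 6.85, 6.40 and 7.45 CPM in siControl against 2.62, 2.54 and 2.16 CPM in siSON and was left at 35.4% (log2 fold change -1.50 with SE 0.13, adjusted p 1.39e-06). OAS1 (chromosome 12, 112906777 to 112933222, plus strand) had 6.99, 7.33 and 8.85 CPM in siControl against 11.4, 11.7 and 11.7 CPM in siSON, with all siSON libraries above the controls (log2 fold change 0.58 with SE 0.11, adjusted p 4.84e-04). The 95% intervals of OAS1 (0.35 to 0.82) and of OAS3 (-1.87 to -1.51) lie on opposite sides of 0, and OAS1 kept its direction and call under the other scalings (0.39 with library totals, 0.81 under cyclic loess). All 3 share part of their span with AC004551.1 on the other strand. OASL, a relative without synthetase activity that acts with RIG-I, lies elsewhere on chromosome 12 and had 103, 100 and 96 counts in siControl and 19, 36 and 19 counts in siSON, a fall (log2 fold change -1.63 with SE 0.30, adjusted p 4.55e-04).

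The IFIT proteins bind viral RNA ends and are among the most strongly induced interferon genes. IFIT2, IFIT3, IFIT1 and IFIT5 lie in this order on the plus strand of chromosome 10, between 89283694 and 89421001; IFIT1, IFIT3 and IFIT5 have 1 intron each. IFIT1 had 23.6, 23.6 and 29.3 CPM in siControl against 13.7, 15.9 and 16.2 CPM in siSON (log2 fold change -0.74 with SE 0.11, adjusted p 6.78e-05) and IFIT3 had 76.4, 60.0 and 66.3 CPM in siControl against 40.4, 44.9 and 44.8 CPM in siSON (log2 fold change -0.64 with SE 0.088, adjusted p 5.14e-05). Both fell to about 60% to 64% of the control level, with no overlap. IFIT2 had 26.8, 18.8 and 26.1 CPM in siControl against 18.7, 18.8 and 22.5 CPM in siSON; siControl replicate 2 equalled the lower siSON libraries and the change was not called (log2 fold change -0.26 with SE 0.13, adjusted p 0.0991), while without that library it was -0.42 (adjusted p 0.00428) and with library totals alone -0.46 (adjusted p 0.00884). IFIT5 had 25.8, 26.0 and 29.5 CPM in siControl against 31.3, 31.0 and 32.8 CPM in siSON (log2 fold change 0.23 with SE 0.075, adjusted p 0.0186). That rise was lost with library totals alone (0.028), without siControl replicate 1 (0.17, adjusted p 0.101) or 2 (0.18, adjusted p 0.123), and without siSON replicate 3 (0.21, adjusted p 0.0527), and with only genes of a mean count of at least 50 (0.17, adjusted p 0.0554). LIPA overlaps IFIT1, IFIT2 and IFIT3 on the other strand, and AL353751.1 overlaps IFIT2 on the same strand.

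ISG15 is a ubiquitin-like modifier that is attached to other proteins, and USP18 removes it and also dampens the interferon receptor. ISG15 (chromosome 1, 1001138 to 1014540, plus strand) had 20.2, 20.5 and 20.6 CPM in the siControl libraries against 7.77, 8.36 and 8.64 CPM in the siSON libraries, tight groups in which siSON kept 40.4% (log2 fold change -1.31 with SE 0.082, adjusted p 9.76e-08). ISG15 overlaps AL645608.1 and AL645608.3 on the other strand. USP18 had 3.20, 3.98 and 3.57 CPM in siControl against 4.77, 5.62 and 6.43 CPM in siSON and rose (log2 fold change 0.65 with SE 0.15, adjusted p 0.00213). Of the enzymes that attach ISG15, the activating enzyme UBA7 fell from 35.8 ± 2.07 CPM to 8.59 ± 0.765 CPM (mean ± SD over 3 libraries) (log2 fold change -2.06 with SE 0.089, adjusted p 8.12e-09). The conjugating enzyme UBE2L6, chosen after its values were seen, rose (log2 fold change 0.78 with SE 0.10, adjusted p 3.35e-05), and the ligase HERC5, chosen in the same way, fell (log2 fold change -0.85 with SE 0.076, adjusted p 1.57e-06).

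Of the antiviral membrane proteins, BST2 was nearly lost while IFITM3 rose. BST2 (tetherin, which holds budding virions at the cell surface; chromosome 19, 17402939 to 17405648, minus strand) had 236, 173 and 193 counts in siControl and 2, 0 and 3 counts in siSON. Summed per group and scaled for depth, the control level was 92.8 times the siSON level, with a 95% counting interval of 39.6 to 287. The fitted value (log2 fold change -6.45 with SE 0.41, adjusted p 1.05e-07) depends on the prior count at such low counts. IFITM3, which blocks fusion of viruses in endosomes (chromosome 11, 319669 to 327537, minus strand), had 77.7, 79.3 and 85.9 CPM in siControl against 124, 119 and 116 CPM in siSON, with all siSON libraries higher (log2 fold change 0.56 with SE 0.058, adjusted p 5.18e-06). IFITM2 had 51.4, 48.5 and 51.3 CPM in siControl against 61.2, 59.3 and 57.7 CPM in siSON (log2 fold change 0.24 with SE 0.058, adjusted p 0.00351); its rise was lost with library totals alone (0.040) and under cyclic loess (0.085). IFITM1 had 85, 35 and 80 counts in siControl and 12, 12 and 9 counts in siSON and fell (log2 fold change -2.20 with SE 0.38, adjusted p 3.21e-04). The IFITM genes are close copies of each other, IFITM1 and IFITM2 overlap on the same strand, and how multi-mapping reads were handled is not given, so the split of counts between them is uncertain.

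The other genes named for their induction by interferon mostly fell. IFI35, which acts with NMI in inflammatory signalling (chromosome 17, 43006725 to 43014456, plus strand), had 17.4, 15 and 13.7 CPM in the siControl libraries against 1.15, 1.75 and 1.24 CPM in the siSON libraries. Only 8.99% of the control mean remained in siSON (log2 fold change -3.48 with SE 0.16, adjusted p 1.27e-08). IFI6, a mitochondrial and endoplasmic reticulum protein, fell from 21.8 ± 0.254 CPM to 10.7 ± 1.08 CPM (mean ± SD over 3 libraries) (log2 fold change -1.03 with SE 0.089, adjusted p 1.18e-06). IFI44L and IFI44, neighbours on chromosome 1, had 12.7, 12.6 and 11.7 CPM in siControl against 9.53, 8.84 and 8.34 CPM in siSON for the first and 17.2, 15.7 and 15.9 CPM in siControl against 11.6, 13.4 and 13.3 CPM in siSON for the second. These were falls of modest size (-0.47 and -0.35 on the log2 scale, adjusted p 8.50e-04 and 0.00451). IFI16, a nuclear DNA sensor, had 195, 168 and 183 CPM in siControl against 278, 221 and 210.1 CPM in siSON, with siSON replicate 1 well above the other siSON libraries (log2 fold change 0.38 with SE 0.10, adjusted p 0.00614). The IFI16 rise was not called with library totals alone (0.18) or under cyclic loess (0.050). IFI27, another mitochondrial member, had 1.42, 1.23 and 1.14 CPM in siControl against 1.17, 1.43 and 0.866 CPM in siSON, overlapping groups and no call (log2 fold change -0.12 with SE 0.24, adjusted p 0.659; 95% interval -0.64 to 0.40).

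ISG20, an exonuclease that degrades RNA, had 131, 118 and 118 counts in siControl and 18, 11 and 18 counts in siSON. That is 16.5% of the control level in siSON (log2 fold change -2.59 with SE 0.26, adjusted p 4.09e-06). PARP9 and DTX3L form a complex of an ADP-ribosyltransferase and a ubiquitin ligase, and their genes start head to head on chromosome 3 with their first parts overlapping. DTX3L (chromosome 3, 122564238 to 122575203, plus strand) had 36.7, 36.3 and 37.8 CPM in siControl against 51.4, 56.7 and 59.1 CPM in siSON and rose (log2 fold change 0.59 with SE 0.068, adjusted p 1.18e-05). PARP9 (chromosome 3, 122527924 to 122564577, minus strand) had 29.7, 27.6 and 28.4 CPM in siControl against 34.4, 32.1 and 34.1 CPM in siSON (log2 fold change 0.23 with SE 0.067, adjusted p 0.00933), a call lost with library totals alone (0.034) and without siControl replicate 2 (0.19, adjusted p 0.0684). SAMD9, a restriction factor of poxviruses, had 63.9, 74.0 and 75.3 CPM in siControl against 40.9, 50.7 and 50.8 CPM in siSON, and its groups did not overlap (log2 fold change -0.58 with SE 0.094, adjusted p 1.83e-04). SAMHD1, which depletes nucleotides needed by retroviruses, had 53.7, 51.5 and 53.0 CPM in siControl against 45.9, 46.5 and 49.7 CPM in siSON and overlaps TLDC2 on the other strand. Its level in siSON was 89.7% of the control mean (log2 fold change -0.16 with SE 0.060, adjusted p 0.0359), a call lost with no low-count filter (-0.15, adjusted p 0.0837) and without siControl replicate 3 (-0.16, adjusted p 0.0740), siSON replicate 1 (-0.12, adjusted p 0.103) or siSON replicate 2 (-0.13, adjusted p 0.137).

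Several genes that interferon induces strongly in many cells were at or near 0 in both groups. RSAD2 (viperin) had 0 counts in the siControl libraries and 1 count in the siSON libraries together. XAF1 had 6 and 1 counts and MX2 had 19 and 1 counts in the same order, which is a control to siSON ratio for MX2 of 14.7 with a 95% counting interval of 2.33 to 609. MX1, a GTPase that traps viral nucleocapsids, had 34, 18 and 39 counts in siControl and 9, 19 and 6 counts in siSON. MX1 was not called (log2 fold change -1.02 with SE 0.47, adjusted p 0.0734; 95% interval -2.06 to 0.023), but was called without siSON replicate 2 (-1.63, adjusted p 0.0174) and with library totals alone (-1.21, adjusted p 0.0398). IFNB1, the gene of interferon beta, had 0 counts in all 6 libraries, as did CXCL9, CMPK2 and ZBP1. CXCL10 had 2 counts and CCL5 had 1 count, all in siControl. Of these, the values of IFNB1 were to be given by rule and the other 5 were chosen after their values were seen.

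The rest of the interferon system was covered by a second list of 84 genes, of which 72 were tested, 34 rose, 32 fell and 6 were not called, and 91.7% were called against 71.7% of all genes tested, with a median log2 fold change of 0.027. The genes behind these shares were not matched for expression level. Transcript levels of the receptor chains and their kinases changed unevenly. IFNAR1 had 79.6, 86.5 and 86.5 CPM in siControl against 89.5, 94.1 and 97.2 CPM in siSON (log2 fold change 0.15 with SE 0.059, adjusted p 0.0363), and the direction turned under library totals alone (-0.045) and cyclic loess (-0.072). The IFNAR1 call was also lost in DESeq2 (adjusted p 0.0529), with a mean count of at least 50 (adjusted p 0.141) and without any single library other than siSON replicate 1 (adjusted p 0.0654 to 0.217). IFNAR2 had 6.84, 8.64 and 8.19 CPM in siControl against 7.20, 7.0 and 7.24 CPM in siSON, with overlapping groups and no call (log2 fold change -0.14 with SE 0.11, adjusted p 0.280; 95% interval -0.39 to 0.11), and was called lower with library totals alone (-0.34, adjusted p 0.0211) and without replicate 1 of both groups (-0.26, adjusted p 0.0498). Of the receptor's kinases, TYK2 (chromosome 19, 10350529 to 10380676, minus strand) had 81.0, 79.6 and 77.3 CPM in siControl against 26.9, 30.5 and 24.8 CPM in siSON and fell (log2 fold change -1.53 with SE 0.078, adjusted p 2.13e-08). JAK1 (chromosome 1, 64833229 to 64966504, minus strand) had 189.6, 179 and 183 CPM in siControl against 368, 331 and 348 CPM in siSON and rose (log2 fold change 0.93 with SE 0.054, adjusted p 5.55e-08). Upstream, TBK1 rose from 77.2 ± 4.01 CPM to 104 ± 4.61 CPM (mean ± SD over 3 libraries) (log2 fold change 0.44 with SE 0.060, adjusted p 5.37e-05), and the level of IKBKE, also picked with its values known, dropped from 20.8 ± 0.498 CPM to 9.80 ± 0.986 CPM (mean ± SD over 3 libraries) (log2 fold change -1.09 with SE 0.091, adjusted p 9.08e-07).

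Among well-counted genes of this second list with groups that did not overlap, the largest rises besides JAK1 were those of WARS (1.10), a tryptophan tRNA synthetase, IFNGR2 (0.95), a chain of the interferon gamma receptor, and SOCS3 (0.89), a feedback inhibitor of JAK signalling. Their adjusted p-values were 3.79e-08, 8.35e-08 and 3.10e-06. IFNGR2 had 32.9, 34.8 and 35 CPM in siControl against 65.3, 65.9 and 66.9 CPM in siSON, with no overlap. The other chain of that receptor, IFNGR1, chosen after its values were seen, fell without overlap (log2 fold change -0.53 with SE 0.0997, adjusted p 6.01e-04). PARP10, an ADP-ribosyltransferase, fell further than UBA7 and TYK2, with 8.77, 7.55 and 7.88 CPM in siControl against 1.29, 1.22 and 0.984 CPM in siSON (log2 fold change -2.79 with SE 0.15, adjusted p 2.90e-08). In the annotation PARP10 overlaps GRINA and SPATC1 and IFNGR2 overlaps TMEM50B, all on the other strand.

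**Figure D4:**
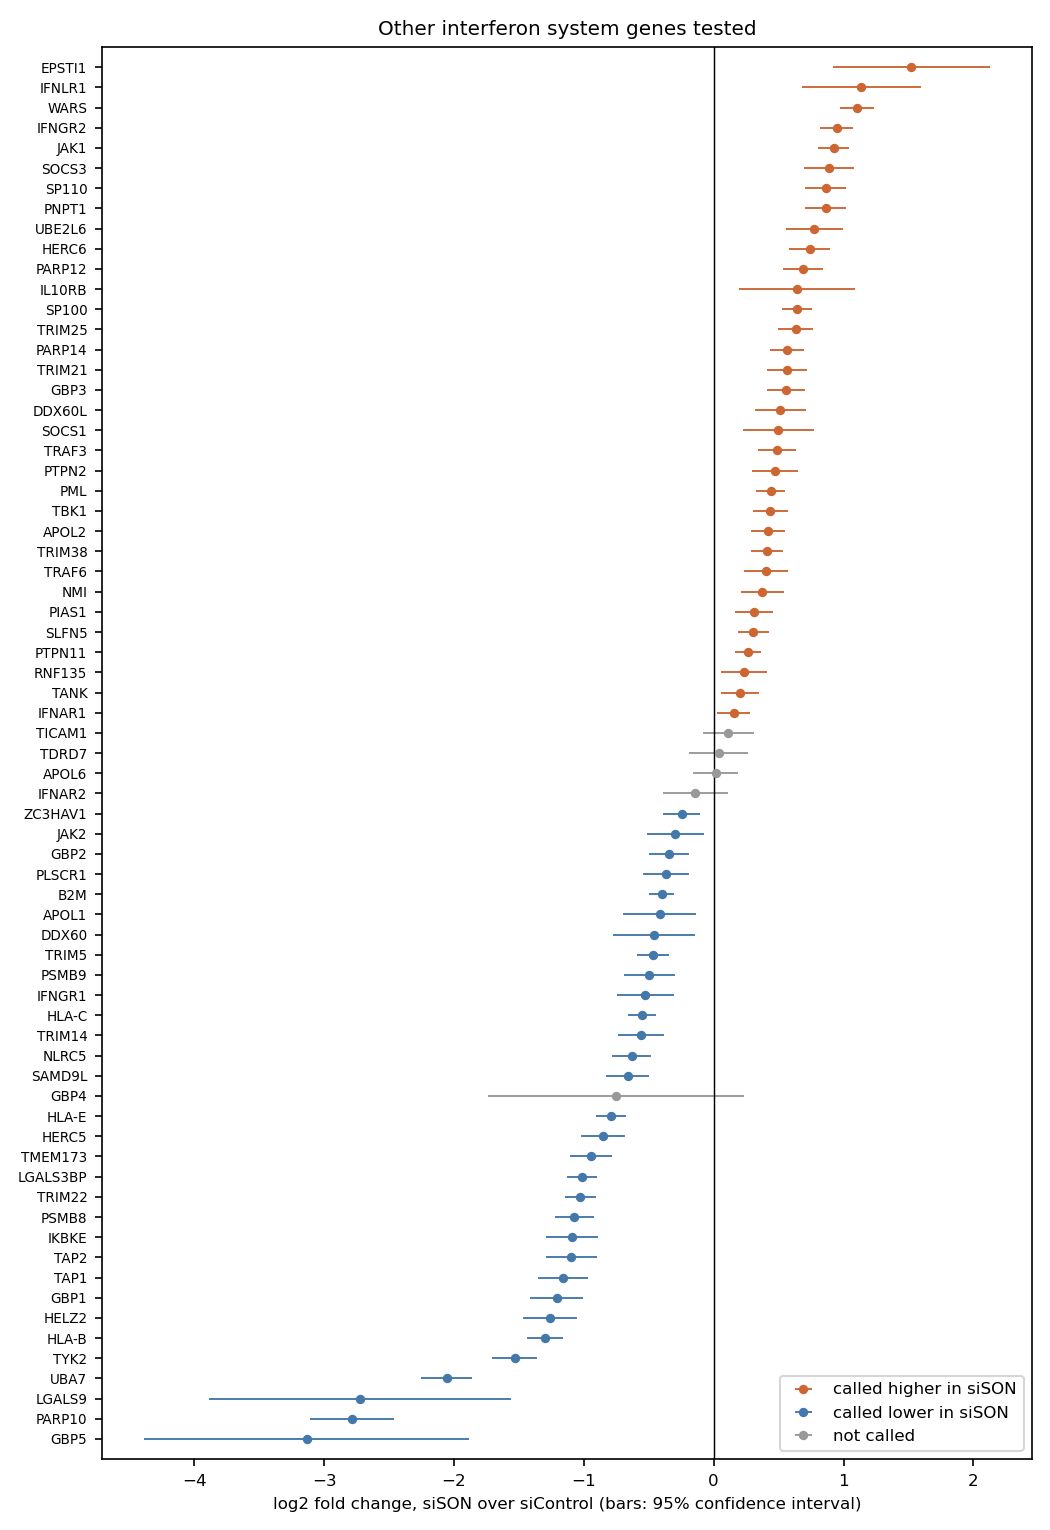
Log2 fold change (siSON over siControl) with 95% confidence intervals of 69 of the 72 tested genes of the second interferon list, ordered by value. The called genes drawn divide into 33 higher and 31 lower, with JAK1 at 0.93 and TYK2 at -1.53.

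The interferon genes that fell at least 2-fold had shorter introns and a higher GC content than those that rose, given here as a description with no test. In the 12 genes with at least a 2-fold fall, the median over genes of the median intron length was 601 bp, and in the 14 genes that rose it was 1670 bp. The 8 genes that fell by less than 2-fold lay on the other side of the rises, with a median intron length of 3060.5 bp and a GC content of 40.8%. Across all genes tested the same values were 1004 bp for 3406 genes lower at least 2-fold and 2176 bp for 5834 genes called higher, of which 3036 and 5433 had introns. Transcript GC content was 56.8% in the 12 genes and 50.7% in the 14 genes, beside 54.96% and 47.4% in the same classes of all genes tested. The shortest introns belonged to IRF7 (median 112.5 bp), IFI35 (169 bp), STAT2 (209 bp) and BST2 (328.5 bp), which all fell. IRF2, with the largest rise, had a median intron length of 8621.5 bp. ISG20 and OASL fell at least 2-fold with median introns of 3104 and 3438 bp. Median introns shorter than 601 bp were also found in genes that rose: ADAR (416.5 bp), IRF9 (424 bp), IRF1 (534 bp), IFITM2 (574 bp) and IFITM3 (574 bp). Across the 39 genes the log2 fold change correlated with log10 median intron length at Pearson's r = 0.377 (Spearman's rho = 0.261) and with GC content at r = -0.428 (rho = -0.372). Across all genes tested, r was 0.223 over 14682 genes with introns and -0.217 over 16585 genes with a sequence. These are correlations across genes of the same 6 libraries, which are not independent replicates.

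**Figure D5:**
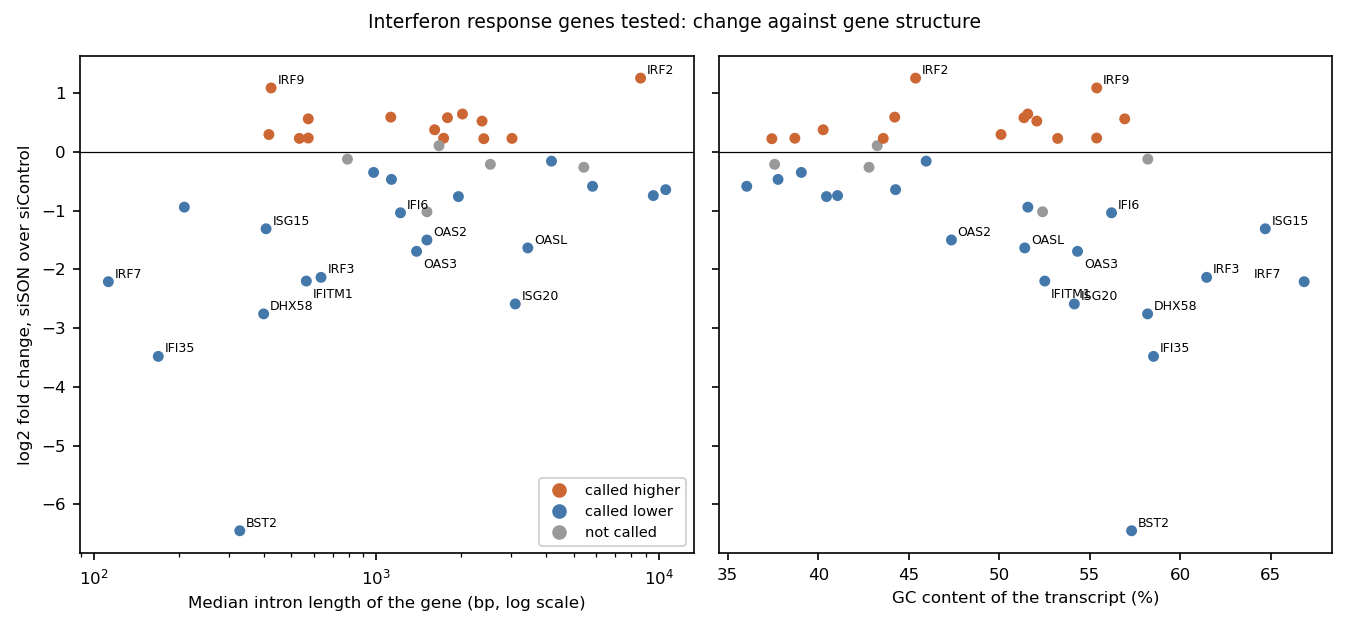
Log2 fold change (siSON over siControl) of the 39 tested interferon response genes against the median intron length of the gene (left, bp, log axis) and the GC content of its transcript (right, percent), coloured by call; genes that fell at least 2-fold or rose at least 2-fold are named. BST2, IFI35 and DHX58, at the bottom, have median introns of 328.5, 169 and 399 bp, and IRF2, at the top, has the longest of the genes that rose.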

How the data were processed

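Messenger RNA was sequenced from 3 siControl and 3 siSON libraries. The deposited table holds the authors' raw counts of reads for each gene, 1 column a library. Per the submitters' processing notes, the build was hg38 and the tools named include cutadapt 1.16, STAR 2.5.2a, featureCounts 1.6.2 and DESeq2 1.28.1, with no role or order. The annotation release, strand setting and treatment of multi-mapping reads are not given in the sources used here. All 58735 identifiers matched GENCODE release 29 of GRCh38, which supplied positions, exon lengths (all exons merged), introns and GC content (1 principal or longest transcript a gene).

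Counts were analysed with edgeR 4.0.16 in R 4.3.3: filterByExpr (minimum count 10), TMM scaling, a robust quasi-likelihood fit on the group alone and Benjamini-Hochberg adjustment over the 16591 genes tested. Adjusted p-values come from this fit unless another tool is named. The SE of a log2 fold change was taken as its size over the root of the F statistic. CPM values used TMM-scaled totals of the tested genes. The fit was also run on simulated counts in which few genes changed, so that run does not test the scaling used here. Library totals of 54572365 to 69764836 counts set the precision.

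Members and lists were chosen with earlier results of these data known. All 42 members are named; from the second list, 7 fixed genes and the 4 largest rises and falls (mean log2 CPM of at least 1, groups not overlapping) are named, except for some genes that are not reported here. Alternatives were DESeq2 1.42.0, limma 3.58.1 (voom, and cyclic loess with a trended fit), relative log expression factors, library totals alone, other filters, the replicate number as a block, and leaving out each library; leaving out replicate 1 of both groups was chosen after seeing the data. Promoters came from RefSeq (GRCh38.p14). Splicing was not analysed here.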

Additional observations from a re-analysis of the deposited data

How the results depend on the processing

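The 15 alternatives left the count of all genes called at 10226 to 12604 (main value 11888). Of the 34 interferon response genes called, 26 kept their call and direction under every alternative in which they were tested (IFITM1 did not reach the mean count of 50 in that alternative) and 8 lost it under at least 1: EIF2AK2, ADAR, IRF1, IFIT5, IFITM2, IFI16, PARP9 and SAMHD1. The count called higher (14) fell to 7 with library totals alone, which shifted the log2 fold changes of all genes by a median of -0.20 and gave the interferon genes a median of -0.54 in place of -0.35; the share of higher genes among their calls went from 41.2% to 23.3%, and among all genes called from 49.1% to 37.7%. Cyclic loess normalization shifted all genes by a median of 0.14 and called 11 higher and 20 lower. Leaving out each library in turn gave 11 to 14 higher, 19 to 21 lower, a median of -0.42 to -0.27, and 11153 to 11783 genes in all; in the second list it gave 30 to 35 higher and 30 to 33 lower.

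Directions that turned were those of EIF2AK2 (-0.0075), ADAR (-0.054), IFI27 (0.26), IFNAR1 (-0.072) and IFNAR2 (0.13) under cyclic loess, IFIH1 (-0.090) and IFNAR1 (-0.045) with library totals alone, and IFI27 without siSON replicate 3 (0.057; over the 6 libraries left out in turn, -0.29 to 0.057). The cause was not tested.

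Deviations of same-numbered libraries of the groups correlated at 0.194, 0.0461 and 0.118. Libraries with different numbers correlated at -0.138 to 0.0286, all below the same-numbered ones. The main fit did not take the numbers as pairs, and whether same-numbered libraries share a source of variation was not tested. With the replicate number as a block, 12313 genes were called, among them 14 interferon response genes higher and 22 lower (median -0.35), and 34 of the second list higher and 32 lower; the 2 calls added were TLR3 (-0.20, adjusted p 0.0417) and IFIT2 (-0.25, adjusted p 0.0274). Depth limits IRF9, OASL, MX1, IFITM1, BST2, ISG20 and IFI27, which had at most 236 counts in any library.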

Other observations

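Within the second list, the genes of class I antigen presentation form a grouping made after their values were seen, so their count is a description with no test. The 9 described here all fell: HLA-B, HLA-C and HLA-E, which present peptides, B2M, their shared light chain, TAP1 and TAP2, which pump peptides into the endoplasmic reticulum, PSMB8 and PSMB9, subunits of the immunoproteasome, and NLRC5, a transactivator of these genes. In the whole second list 32 of 72 genes tested fell, and 36.5% of all genes tested were called lower. Their median log2 fold change was -0.79, from -1.30 (HLA-B) to -0.40 (B2M), and all 9 were called lower under each of the 4 scalings, with the largest adjusted p (0.0125, PSMB9 under cyclic loess) from limma. B2M, the most counted, went from 772 ± 11.0 to 585 ± 14.2 CPM (SD, n = 3 each). PSMB9 overlaps TAP1 and PSMB8 on the other strand, HLA-B overlaps HLA-C on the same strand, reads of the HLA genes can be split between near-identical copies, and the strand setting of the counting is not given in the sources used here.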
